A study of Mus musculus with 21 samples.

Results

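Retinoic acid is made, bound and broken down by a small set of genes, and 9 of them were followed here in whole mouse testis: Aldh1a1, Aldh1a2, Aldh1a3, Rdh10, Rbp4, Stra6, Crabp1, Cyp26b1 and Rara. They were chosen by symbol from a table of 55573 gene entries, and each stood on 1 entry. All 9 averaged 1 TPM or more (an abundance per transcript length, scaled to the same total in every library) over the 21 libraries, and so were among the 18977 genes tested. The testes came from C57BL6 male mice that were wild type or Mageb4 knockout, taken either without heat or 72 h after heat shock. Of the 21 libraries, 6 were unheated wild type (called the wild-type control), 6 unheated knockout (knockout control), 4 heated wild type (wild-type heat) and 5 heated knockout (knockout heat), each a separate biological replicate per the labels. Age, the knockout allele and how hot and how long the heat shock was are not stated in the sources used here. The question of the design was how loss of Mageb4, an X-linked MAGE family gene, affects the testis transcriptome with and without heat stress.

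Retinoic acid is formed from vitamin A in steps: retinol is oxidised to retinal, chiefly by Rdh10, and retinal is oxidised to retinoic acid by the Aldh1a enzymes. Rbp4 carries retinol in blood, Stra6 takes it into cells, Crabp1 binds retinoic acid in the cytoplasm, Cyp26 enzymes break it down, and Rara is a nuclear receptor through which it acts. In the testis, retinoic acid drives spermatogonia into differentiation and germ cells into meiosis, Sertoli cells are a source of it through Aldh1a1, and spermatocytes and spermatids express Aldh1a2.

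Promoters of 3 members are shown because these genes moved in different ways after heat: Aldh1a1 and Cyp26b1 rose and Aldh1a2 fell. Each is the stretch of 250 bases before a transcription start, from RefSeq on GRCm38.p6. Of the 9 members, 7 had an entry, and Aldh1a3 and Rdh10 had none. The windows are chr19:20601718-20601967 (plus strand, Aldh1a1), chr9:71215539-71215788 (plus strand, Aldh1a2) and chr6:84593811-84594060 (minus strand, Cyp26b1). Capitals mark 1 of 4 receptor half-sites (the letters AGGTCA, the variant AGTTCA, the variant GGGTCA and the variant GGTTCA, searched on both strands) or the letters TATAAA.
Aldh1a1: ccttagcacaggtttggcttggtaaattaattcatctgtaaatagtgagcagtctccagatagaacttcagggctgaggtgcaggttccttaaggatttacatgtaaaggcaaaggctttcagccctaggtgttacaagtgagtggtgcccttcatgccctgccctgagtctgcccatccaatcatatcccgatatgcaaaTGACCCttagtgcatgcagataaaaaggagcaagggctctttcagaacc
Aldh1a2: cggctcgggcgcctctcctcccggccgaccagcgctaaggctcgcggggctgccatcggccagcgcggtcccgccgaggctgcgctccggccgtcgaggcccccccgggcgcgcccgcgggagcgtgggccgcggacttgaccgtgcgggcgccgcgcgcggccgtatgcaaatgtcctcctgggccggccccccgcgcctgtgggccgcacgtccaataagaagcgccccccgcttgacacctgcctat
Cyp26b1: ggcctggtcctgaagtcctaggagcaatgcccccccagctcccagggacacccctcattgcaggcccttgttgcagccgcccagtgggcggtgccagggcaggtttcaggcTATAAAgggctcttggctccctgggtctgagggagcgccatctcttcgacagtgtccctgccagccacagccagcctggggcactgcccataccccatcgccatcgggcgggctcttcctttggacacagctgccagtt
The Aldh1a1 window held TGACCC, which is GGGTCA on the other strand, and the Cyp26b1 window held TATAAA. The Aldh1a2 window held neither. Aldh1a1 had another window at chr19:20492333-20492582 with 0 half-sites. The one shown was taken because its start lies nearer to that of a principal GENCODE transcript (7 bases, against 132), and it lies within the span of the gene. A half-site occurred in 38.6% and TATAAA in 12.4% of 32851 RefSeq windows of the same length. No window of a member held a direct repeat of half-sites with a spacing of 1, 2 or 5 bases. Such repeats stood in 0.164%, 0.174% and 0.0883% of all windows. These matches describe letters and say nothing of binding.

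The members lie on 6 chromosomes (mm10, GENCODE M21). Aldh1a1 spans chr19:20492715-20643465 and Rbp4 chr19:38116629-38125281. On chromosome 9 lie Aldh1a2 (chr9:71215789-71296243), Stra6 (chr9:58063788-58153996) and Crabp1 (chr9:54764748-54773110). The others are Aldh1a3 (chr7:66390890-66427517), Rdh10 (chr1:16105774-16133734), Cyp26b1 (chr6:84571414-84593908) and Rara (chr11:98927818-98974942). Stra6 overlaps Ccdc33 on the opposite strand with 0 shared exon bases. Whether the authors' quantification used strand is not stated in the sources used here. Ccdc33 averaged 110 TPM in the wild-type control and 42.8 TPM in wild-type heat. In the knockout it averaged 109 TPM without heat and 92.6 TPM after it. Its part in the Stra6 values was not tested.

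Before the members are described, some facts of the whole series touch them. Mageb4 was 1.53 to 1.99 TPM in the wild-type control and 7.82 to 8.26 TPM in wild-type heat, and 0.01 to 0.15 TPM in all knockout libraries. All 14 Sertoli cell markers were called higher after heat in both genotypes, and 7 of 8 pachytene spermatocyte markers were called lower. The summed TPM of the Sertoli list ran from 1622 to 1874 in the wild-type control, 2057 to 2759 in the knockout control, 15020 to 19413 in wild-type heat and 6096 to 9142 in knockout heat. Sums of the Leydig list were 1075 to 1574, 1401 to 2070, 4748 to 6745 and 4213 to 5428, and those of the pachytene list were 2461 to 2596, 2352 to 2456, 1277 to 1597 and 1666 to 1871, in the same order. No gene of these 3 lists was at 0 in every library of a group. In whole tissue, fewer cells of a type and less RNA per cell cannot be told apart, and TPM moves when other transcripts do. The part of cell composition in the changes given here was not tested. In wild-type heat replicate 3, Crisp1, a gene of the epididymis, stood at 2125.82 TPM, while no other library exceeded 3.81 TPM, and knockout control replicate 6 had the highest Sertoli sum of its group. Results that change without them are given where they occur.

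After heat, most members rose in both genotypes while Aldh1a2 fell. For 6 of the members that rose in wild type, the heat effect was smaller in the knockout by a test of the difference. That difference was called lower for 47.6% and higher for 33.2% of all tested genes. In wild type 7 members were called higher and 1 lower (limma on log2(TPM + 1), Benjamini-Hochberg adjusted p under 0.05), against 47.0% of all tested genes higher and 44.6% lower. In the knockout the counts were again 7 and 1, against 41.3% higher and 41.5% lower. The median log2 change of the members was 1.21 in wild type and 0.60 in the knockout, beside 0.06 and 0.01 over all tested genes. Groups did not overlap for 7 members in wild type and 6 in the knockout, where 86.5% and 69.7% of all genes had no overlap. With so many genes called, a called member is not by itself particular to the list.

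**Figure D1:**
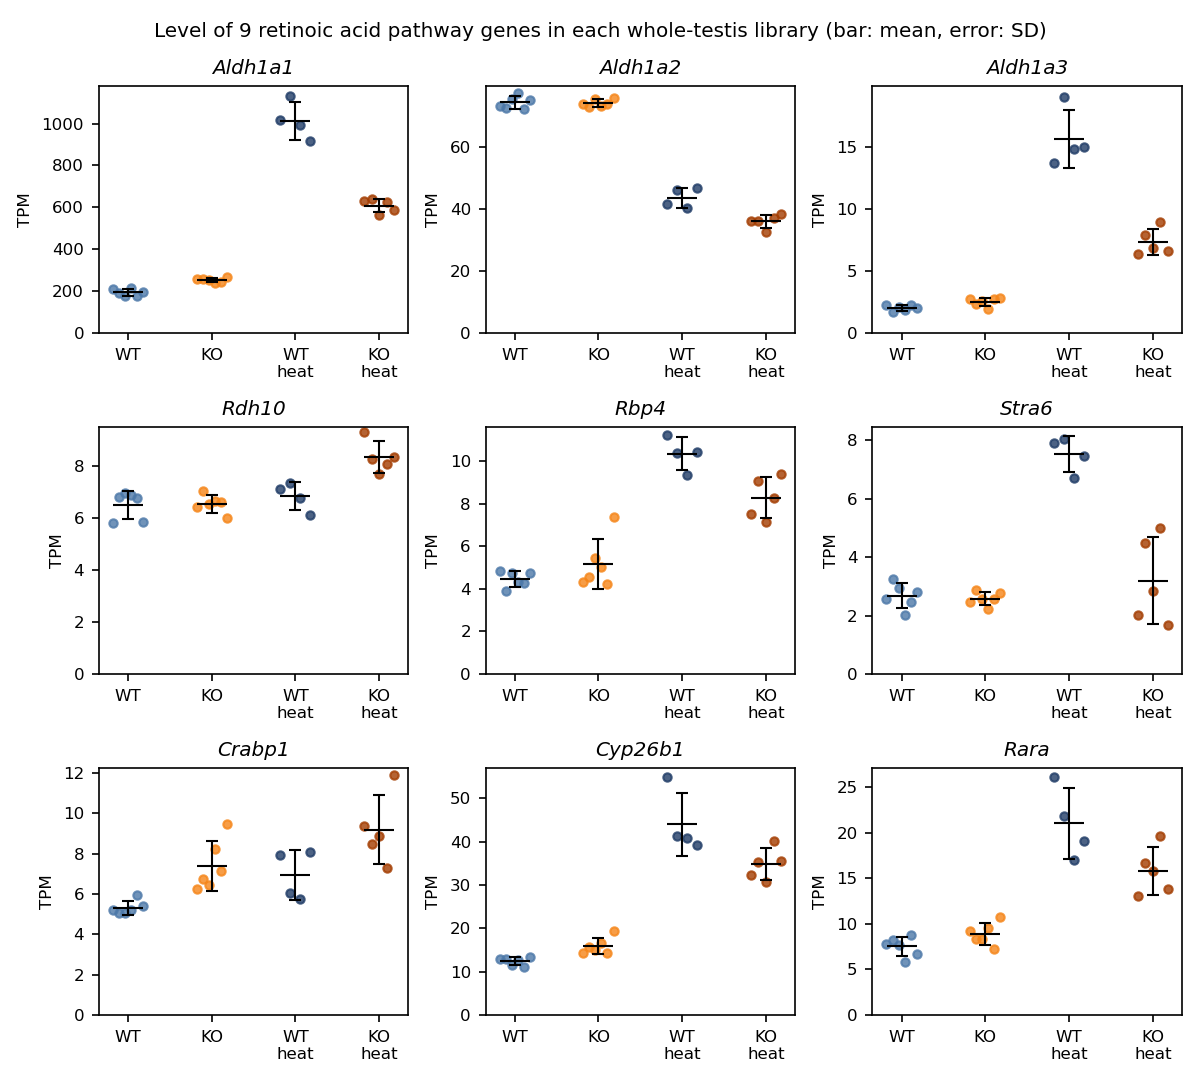
TPM of the 9 members (y axes, each from 0) in each of 21 whole-testis libraries (points), by group (x axis), with the group mean (bar) and SD (error bar). Aldh1a1 stands at 915 to 1131 TPM in wild-type heat and at 177 to 216 TPM in the wild-type control, while Aldh1a2 falls from 72.5 to 77.6 TPM to 40.3 to 46.8 TPM.

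Among the synthesis genes, Aldh1a1 was the most abundant member in every group. Its level in the wild-type control was 177.41 TPM at the lowest, 193.87 at the median and 215.56 at the highest. In the knockout control the same 3 values were 239.0, 255.41 and 266.99 TPM. The wild-type heat libraries held 1015.6, 1131.37, 991.24 and 914.5 TPM, and the knockout heat libraries held 627.8, 639.88, 562.6, 625.02 and 585.38 TPM. No 2 of the 4 groups overlapped, and the order was wild-type control, knockout control, knockout heat, wild-type heat. Aldh1a1 ranked 1116th from the top among all entries by group mean in the wild-type control and 89th in wild-type heat. The change with heat was a log2 fold change of 2.37 ± 0.06 (SE) in wild type (5.20-fold, limma adjusted p = 8.66e-18) and 1.26 ± 0.06 in the knockout (2.41-fold, limma adjusted p = 9.34e-14).

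Aldh1a2, the isozyme of germ cells, fell. It was 72.45, 74.41 and 77.61 TPM (lowest, median, highest) in the wild-type control and 72.98, 74.1 and 75.82 TPM in the knockout control. The wild-type heat libraries held 41.59, 46.28, 40.3 and 46.82 TPM, and the knockout heat libraries 36.15, 36.06, 32.75, 37.2 and 38.36 TPM. The 2 unheated groups covered the same range, and both heated groups lay below them without overlap. The log2 fold change was -0.76 ± 0.05 in wild type (limma adjusted p = 2.79e-12) and -1.02 ± 0.05 in the knockout (limma adjusted p = 5.85e-14).

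Aldh1a3, the third enzyme that makes retinoic acid from retinal, was low without heat. It lay at 1.66, 2.03 and 2.27 TPM (lowest, median, highest) in the wild-type control and at 1.95, 2.64 and 2.82 TPM in the knockout control. After heat the wild-type libraries held 13.69, 19.01, 14.81 and 15 TPM and the knockout libraries 6.38, 7.86, 6.87, 8.96 and 6.6 TPM. Neither heated group overlapped the other or the controls. The log2 fold change was 2.46 ± 0.10 in wild type (7.75-fold, limma adjusted p = 8.00e-16) and 1.24 ± 0.09 in the knockout (2.91-fold, limma adjusted p = 7.88e-11).

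The balance between the 3 isozymes shifted. Aldh1a2 made up 27.5% ± 1.49 (SD, n = 6) of their summed TPM in the wild-type control and 22.6% ± 0.666 (SD, n = 6) in the knockout control. After heat it made up 4.10% ± 0.464 (SD, n = 4) in wild type and 5.55% ± 0.316 (SD, n = 5) in the knockout. The sum itself was 271 ± 17.2 TPM, 330 ± 11.5 TPM, 1073 ± 91.9 TPM and 652 ± 34.1 TPM in the same order of groups, so the smaller share in heat combined less Aldh1a2 and more Aldh1a1. Shares did not overlap in any of 4 comparisons. The difference was -23.4 percentage points with heat in wild type (2-sided exact permutation p = 0.00476, adjusted over 4 tests 0.00635) and -17.0 points in the knockout (exact permutation p = 0.00216, adjusted 0.00433). Without heat the difference of knockout from wild type was -4.95 points (exact permutation p = 0.00216, adjusted 0.00433), and after heat it was 1.45 points above (exact permutation p = 0.00794, adjusted 0.00794). Each p is the smallest that its design allows. Without heat Aldh1a2 averaged 74.5 TPM in wild type and 74.4 TPM in the knockout, while Aldh1a1 averaged 195 and 253 TPM. After heat Aldh1a2 averaged 43.7 and 36.1 TPM and Aldh1a1 1013 and 608 TPM. The genotype differences in share therefore do not show the direction of Aldh1a2 itself.

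**Figure D2:**
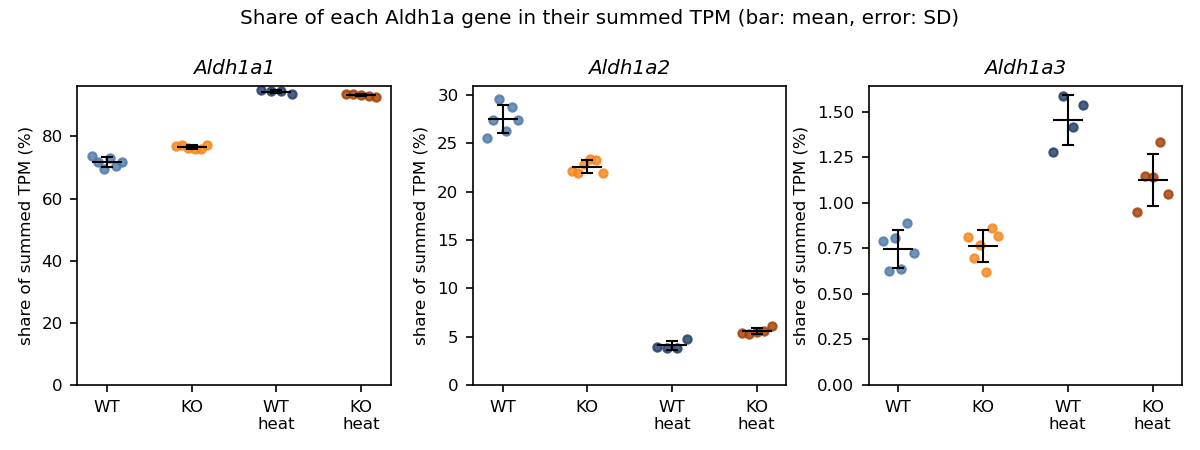
Share (percent, y axes from 0) of Aldh1a1, Aldh1a2 and Aldh1a3 in their summed TPM in each library (points), by group (x axis), with the mean (bar) and SD (error bar). The Aldh1a2 share lies between 25.6% and 29.6% in the wild-type control and at 3.85% to 4.80% in wild-type heat.

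Rdh10, which makes the retinal that the Aldh1a enzymes use, changed little. It was 5.8, 6.80 and 6.96 TPM (lowest, median, highest) in the wild-type control and 6.02, 6.59 and 7.07 TPM in the knockout control. The wild-type heat libraries held 7.13, 7.37, 6.79 and 6.12 TPM and the knockout heat libraries 9.34, 8.28, 7.72, 8.1 and 8.35 TPM. Only the knockout heat group stood apart, with every library above every other library of the other 3 groups. The log2 difference with heat in wild type was 0.06 ± 0.07 (limma adjusted p = 0.366), and its sign turns to -0.14 with median-of-ratios scaling (limma adjusted p = 0.0480) and to -0.04 with quantile normalization. In the knockout it rose by a log2 of 0.31 ± 0.06 (limma adjusted p = 0.000121).

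For supply and uptake, Rbp4, the retinol carrier, was 3.91, 4.54 and 4.85 TPM (lowest, median, highest) in the wild-type control and 4.24, 4.81 and 7.37 TPM in the knockout control. The heated libraries held 11.24, 10.39, 9.37 and 10.43 TPM in wild type and 7.51, 9.05, 7.14, 8.28 and 9.39 TPM in the knockout. The high knockout control value belonged to replicate 6 and overlapped the knockout heat range. Rbp4 rose by a log2 of 1.05 ± 0.11 in wild type (limma adjusted p = 4.89e-09) and 0.60 ± 0.10 in the knockout (limma adjusted p = 1.11e-05).

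Stra6, the retinol importer, was 2.03, 2.70 and 3.26 TPM (lowest, median, highest) in the wild-type control and 2.22, 2.57 and 2.87 TPM in the knockout control. The wild-type heat libraries held 7.9, 8.04, 6.69 and 7.45 TPM, all above every other library. The knockout heat libraries held 2.02, 4.47, 2.83, 5.01 and 1.66 TPM, of which replicates 2 and 4 lay above and replicates 1 and 5 below all knockout controls. The summed Sertoli markers of these knockout heat libraries were 8892 TPM in replicate 2 and 9142 TPM in replicate 4, 6096 TPM in replicate 1 and 6185 TPM in replicate 5, and 6992 TPM in replicate 3, and their part in the spread of Stra6 was not tested. Stra6 rose by a log2 of 1.21 ± 0.17 in wild type (limma adjusted p = 5.51e-07), and the value in the knockout was 0.16 ± 0.16 (limma adjusted p = 0.348). Leaving out 1 library moved that value between 0.01 and 0.31.

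Crabp1, which holds retinoic acid in the cytoplasm, was 5.03, 5.19 and 5.94 TPM (lowest, median, highest) in the wild-type control and 6.23, 6.93 and 9.45 TPM in the knockout control. The heated libraries held 7.95, 6.03, 5.75 and 8.06 TPM in wild type and 9.37, 8.46, 8.88, 7.26 and 11.89 TPM in the knockout. Heated and control libraries overlapped in both genotypes. The rises were small, with a log2 of 0.32 ± 0.12 in wild type (limma adjusted p = 0.0137) and 0.28 ± 0.11 in the knockout (limma adjusted p = 0.0250). With median-of-ratios scaling they were 0.12 (limma adjusted p = 0.318) and 0.20 (limma adjusted p = 0.0845). The wild-type call was also lost without wild-type heat replicate 1 or 4, and the knockout call without knockout control replicate 1 or 3 or knockout heat replicate 5.

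Cyp26b1, which degrades retinoic acid, was 11.0, 12.79 and 13.43 TPM (lowest, median, highest) in the wild-type control and 14.3, 15.46 and 19.37 TPM in the knockout control. The heated libraries held 54.82, 41.24, 40.8 and 39.18 TPM in wild type and 32.31, 35.41, 30.6, 40.16 and 35.62 TPM in the knockout. Both heated groups lay above both controls, and the 2 heated groups overlapped. The log2 fold change was 1.73 ± 0.10 in wild type (3.54-fold, limma adjusted p = 1.43e-13) and 1.08 ± 0.09 in the knockout (2.19-fold, limma adjusted p = 4.18e-10).

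Rara, the receptor, was 5.82, 7.75 and 8.83 TPM (lowest, median, highest) in the wild-type control and 7.23, 8.80 and 10.74 TPM in the knockout control. The heated libraries held 26.08, 21.82, 17.05 and 19.09 TPM in wild type and 13.01, 16.68, 15.78, 19.62 and 13.79 TPM in the knockout. Both heated groups lay above both controls and overlapped each other. Rara rose by a log2 of 1.36 ± 0.13 in wild type (limma adjusted p = 1.05e-09) and 0.76 ± 0.12 in the knockout (limma adjusted p = 5.04e-06).

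**Figure D3:**
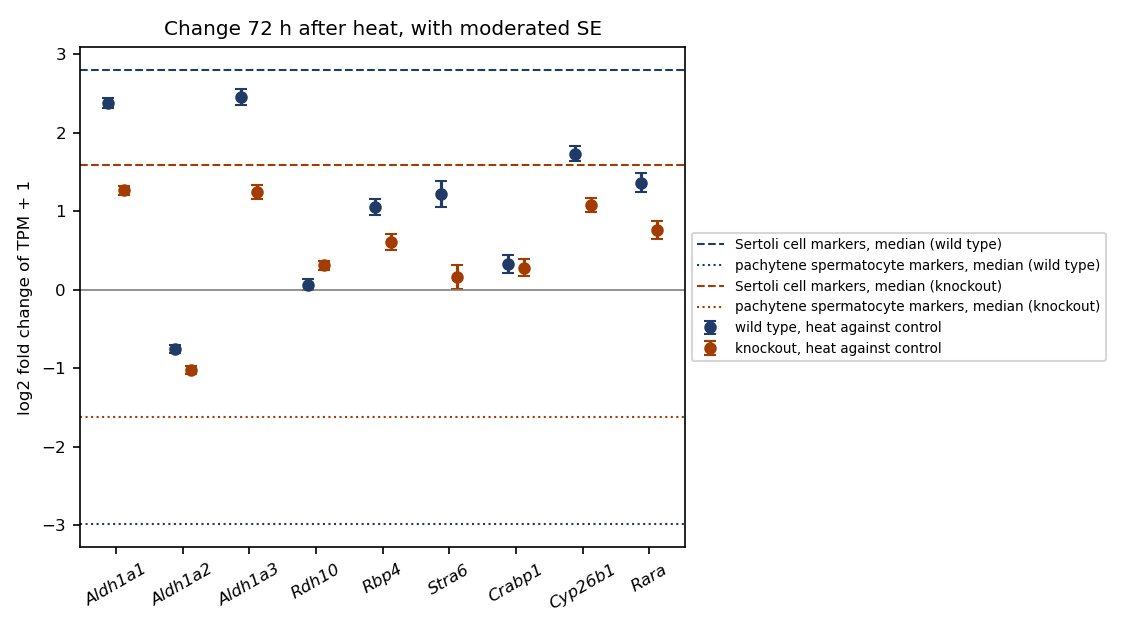
Log2 fold change of TPM + 1 after heat (y axis, points with moderated SE) for the 9 members (x axis) in wild type and the knockout, with the median change of the Sertoli cell (dashed) and pachytene spermatocyte (dotted) markers in the same colours. Aldh1a1 (2.37) and Aldh1a3 (2.46) lie nearest to the Sertoli median of 2.80 in wild type, and Aldh1a2 (-0.76) lies between 0 and the pachytene median of -2.99.

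In the wild-type control the order of mean levels, on the TPM scale that adjusts for transcript length, was Aldh1a1 (195 ± 16.3 TPM, SD, n = 6), Aldh1a2 (74.5 ± 2.00), Cyp26b1 (12.4 ± 0.926), Rara (7.52 ± 1.09), Rdh10 (6.52 ± 0.541), Crabp1 (5.30 ± 0.340), Rbp4 (4.48 ± 0.372), Stra6 (2.69 ± 0.426) and Aldh1a3 (2.02 ± 0.229). The ranges of Rara and Rdh10 overlapped, as did those of Rdh10 and Crabp1 and those of Stra6 and Aldh1a3. In wild-type heat Aldh1a1 (1013 ± 89.8 TPM, SD, n = 4) stayed first, and Aldh1a2 (43.7 ± 3.29) and Cyp26b1 (44.0 ± 7.26) overlapped. Aldh1a3 (15.6 ± 2.33) stood above Rbp4, Stra6, Crabp1 and Rdh10 without overlap. In the knockout control Crabp1 (7.37 ± 1.24 TPM, SD, n = 6) came before Rdh10 (6.56 ± 0.340), and their ranges overlapped. In knockout heat Aldh1a2 (36.1 ± 2.09 TPM, SD, n = 5) and Cyp26b1 (34.8 ± 3.66) overlapped, as did Crabp1 (9.17 ± 1.71), Rdh10 (8.36 ± 0.601), Rbp4 (8.27 ± 0.964) and Aldh1a3 (7.33 ± 1.07), and Stra6 (3.20 ± 1.48) was lowest.

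Without heat, the knockout differed from wild type in 1 member, Aldh1a1, which was higher by a log2 of 0.38 ± 0.06 (1.30-fold, limma adjusted p = 0.00828). Over all tested genes 1.25% were called higher and 0.0843% lower. The range of the adjusted p over the alternatives was 0.00289 to 0.0378. Crabp1 (0.40 ± 0.11, limma adjusted p = 0.0581) and Cyp26b1 (0.33 ± 0.09, limma adjusted p = 0.0565) were not called, although their groups did not overlap, which held for 3 members and for 4.97% of all genes. Both were called with a pseudocount of 0.1 (limma adjusted p of 0.0469 and 0.0455). Without knockout control replicate 6 the values were 0.33 for Crabp1 (limma adjusted p = 0.178) and 0.27 for Cyp26b1 (limma adjusted p = 0.172). Aldh1a2 (0.00 ± 0.04) and Rdh10 (0.01 ± 0.06) differed between the genotypes by less than their SE. In the same comparison 4 of 14 Sertoli markers and 2 of 7 Leydig markers were called higher, with list medians of 0.34 and 0.41.

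After heat, all 9 members differed between the genotypes, 2 higher and 7 lower in the knockout, against 34.4% higher and 49.0% lower over all tested genes. The largest differences were in Stra6 (-1.09 ± 0.17, limma adjusted p = 6.76e-06), Aldh1a3 (-0.996 ± 0.103, limma adjusted p = 2.04e-08) and Aldh1a1 (-0.73 ± 0.07, limma adjusted p = 3.08e-09). Rara (-0.39 ± 0.13), Cyp26b1 (-0.32 ± 0.10), Rbp4 (-0.30 ± 0.11) and Aldh1a2 (-0.27 ± 0.05) were also lower. Rdh10 (0.25 ± 0.07) and Crabp1 (0.35 ± 0.12) were higher in the knockout. Groups did not overlap for 5 members and for 72.3% of all genes. The calls of Rbp4 (limma adjusted p = 0.0965) and Rara (0.0529) were lost with median-of-ratios scaling, and both were lost without wild-type heat replicate 1, that of Rbp4 also without knockout heat replicate 3. That of Crabp1 was lost without wild-type heat replicate 3 (limma adjusted p = 0.0534). In the same comparison 13 of 14 Sertoli markers were called lower in the knockout, with a median of -0.91, and 6 of 8 pachytene markers were called higher, with a median of 0.996.

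The heat effect itself differed between the genotypes for 8 members, which is a direct test of the difference. It was higher in the knockout for 1 member and lower for 7, against 33.2% and 47.6% of all tested genes. The differences were largest for Aldh1a3 (-1.22, limma adjusted p = 1.01e-07), Aldh1a1 (-1.11, limma adjusted p = 1.15e-09) and Stra6 (-1.05, limma adjusted p = 0.000276). Cyp26b1 (-0.65), Rara (-0.61), Rbp4 (-0.45) and Aldh1a2 (-0.27) followed. The Aldh1a2 call was lost with median-of-ratios scaling (limma adjusted p = 0.0811). The Rdh10 difference of 0.24 (limma adjusted p = 0.0191) was lost without wild-type heat replicate 4 (limma adjusted p = 0.0558) and without both wild-type heat replicate 3 and knockout control replicate 6 (limma adjusted p = 0.0522). For Crabp1 the difference was -0.05 (limma adjusted p = 0.801), and its sign turns to 0.08 with median-of-ratios scaling and 0.02 with quantile normalization.

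Set beside the mean of the 14 Sertoli markers, the members moved by different amounts. The mean log2 change of that list was 2.77 with heat in wild type and 1.57 in the knockout. Relative to it, Aldh1a1 changed by -0.40 and -0.31, Aldh1a3 by -0.32 and -0.33, and Cyp26b1 by -1.04 and -0.49 (wild type, then knockout). Rara changed by -1.41 and -0.81, Stra6 by -1.56 and -1.41, and Rbp4 by -1.72 and -0.97. For Crabp1 the relative change was -2.45 and -1.29, for Rdh10 -2.71 and -1.26, and for Aldh1a2 -3.53 and -2.59. On this log2(TPM + 1) scale the mean relative change was below 0 for all 9 members in both genotypes. Heated and control libraries overlapped on it for Aldh1a3 in wild type (-0.32) and for Aldh1a1 in the knockout (-0.31). The scale understates the change of low genes such as Aldh1a3, and no relative value with another pseudocount is given here. The sign for Aldh1a3 is therefore not settled. Without heat, Aldh1a1 differed between the genotypes by 0.07 on this scale, with overlapping groups, while its plain difference was 0.38. After heat, the knockout minus wild-type difference on this scale was above 0 for 5 members that were lower in the knockout in TPM: Aldh1a1 (0.16, overlapping groups), Aldh1a2 (0.63), Rbp4 (0.60), Cyp26b1 (0.57) and Rara (0.51). It was -0.10 for Aldh1a3 and -0.20 for Stra6, with overlapping groups, and 1.15 for Rdh10 and 1.25 for Crabp1. The Sertoli list itself was lower in the knockout there, by a mean log2 of -0.89. Aldh1a2 fell less than the mean of the 8 pachytene markers, by 1.85 in wild type and 0.56 in the knockout. Spermatid markers did not move alike. The median log2 change with heat of 8 round spermatid markers was -4.04 in wild type and -1.65 in the knockout. That of 6 elongating spermatid markers was -0.27 and 0.73. These values are descriptions with no test.

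**Figure D4:**
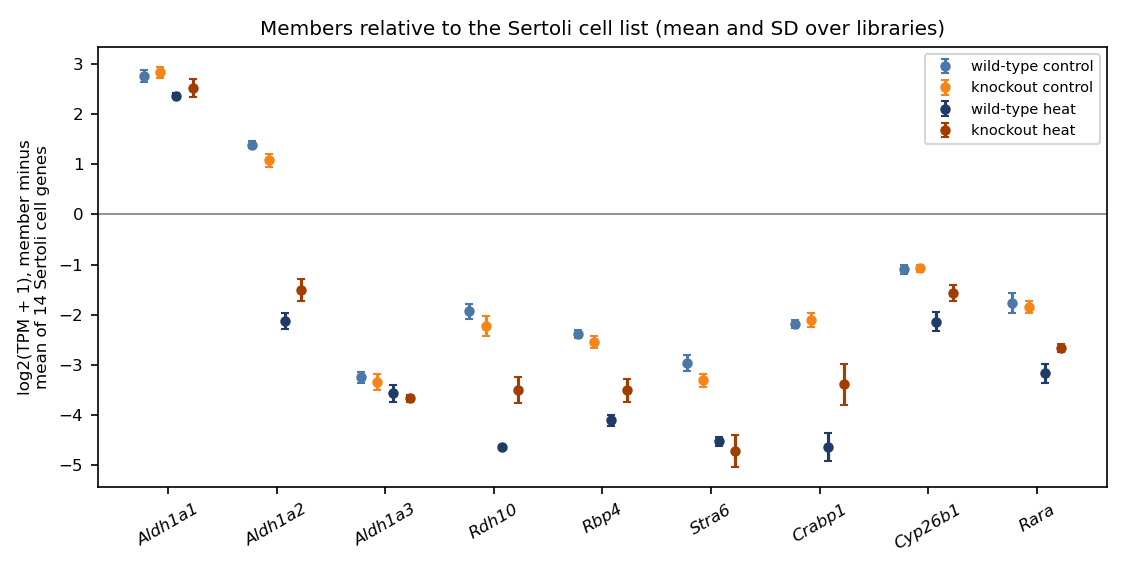
Log2(TPM + 1) of each member minus the mean of 14 Sertoli cell markers in the same library (y axis), as mean and SD over the libraries of each group (colours), by member (x axis). Aldh1a1 and Aldh1a3 shift by -0.40 and -0.32 with heat in wild type, and Aldh1a2 by -3.53.

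Of 45 other retinoid pathway genes listed in 6 groups, 30 were tested. With heat in wild type 14 were called higher and 8 lower, and in the knockout 16 and 11. Over all tested genes 47.0% were higher and 44.6% lower in wild type, and 41.3% and 41.5% in the knockout. Their median log2 change was 0.09 and 0.16, beside 0.06 and 0.01 over all tested genes. Without heat, 2 were higher in the knockout, Adh5 (0.37 ± 0.09, limma adjusted p = 0.0429) and Fabp5 (0.50 ± 0.11, limma adjusted p = 0.0357). That count was 0 with no filter, with quantile normalization and without both wild-type heat replicate 3 and knockout control replicate 6, 1 with median-of-ratios scaling, and 0 to 3 when 1 library was left out. Between the genotypes after heat, 6 were higher and 18 lower in the knockout, where 34.4% and 49.0% of all tested genes were. No test compared these lists with other genes, and nothing particular to the pathway is read from the counts.

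Of the other enzymes of retinol and retinal, 12 of 17 were tested, with 5 higher and 5 lower after heat in wild type and 5 and 6 in the knockout, near the shares called over all tested genes (47.0% and 44.6%, then 41.3% and 41.5%). Rdh11, a retinal reductase, fell from 194 ± 9.95 TPM (SD, n = 6) to 36.9 ± 5.21 TPM (SD, n = 4) in wild type, and Adh1, an alcohol dehydrogenase that oxidises retinol, rose from 6.86 ± 1.07 to 68.4 ± 9.71 TPM. Lrat, which esterifies retinol for storage, fell by a log2 of 1.57 in wild type and by 1.13 in the knockout. In TPM it fell from 3.21 to 0.43 (7.43-fold) and from 3.24 to 0.93 (3.48-fold). Bco1, which cleaves beta-carotene into retinal, fell from 25.4 ± 1.81 to 7.26 ± 1.53 TPM in wild type. In the knockout Bco1 was 24.8 ± 1.36 TPM without heat and 25.8 ± 2.19 TPM after it, and the difference of the heat effects was 1.74 ± 0.13 (limma adjusted p = 5.27e-10). Fabp5, a lipid carrier that also binds retinoic acid, averaged 8.71 TPM without and 135 TPM with heat in wild type, and 12.7 and 54.4 TPM in the knockout.

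**Figure D5:**
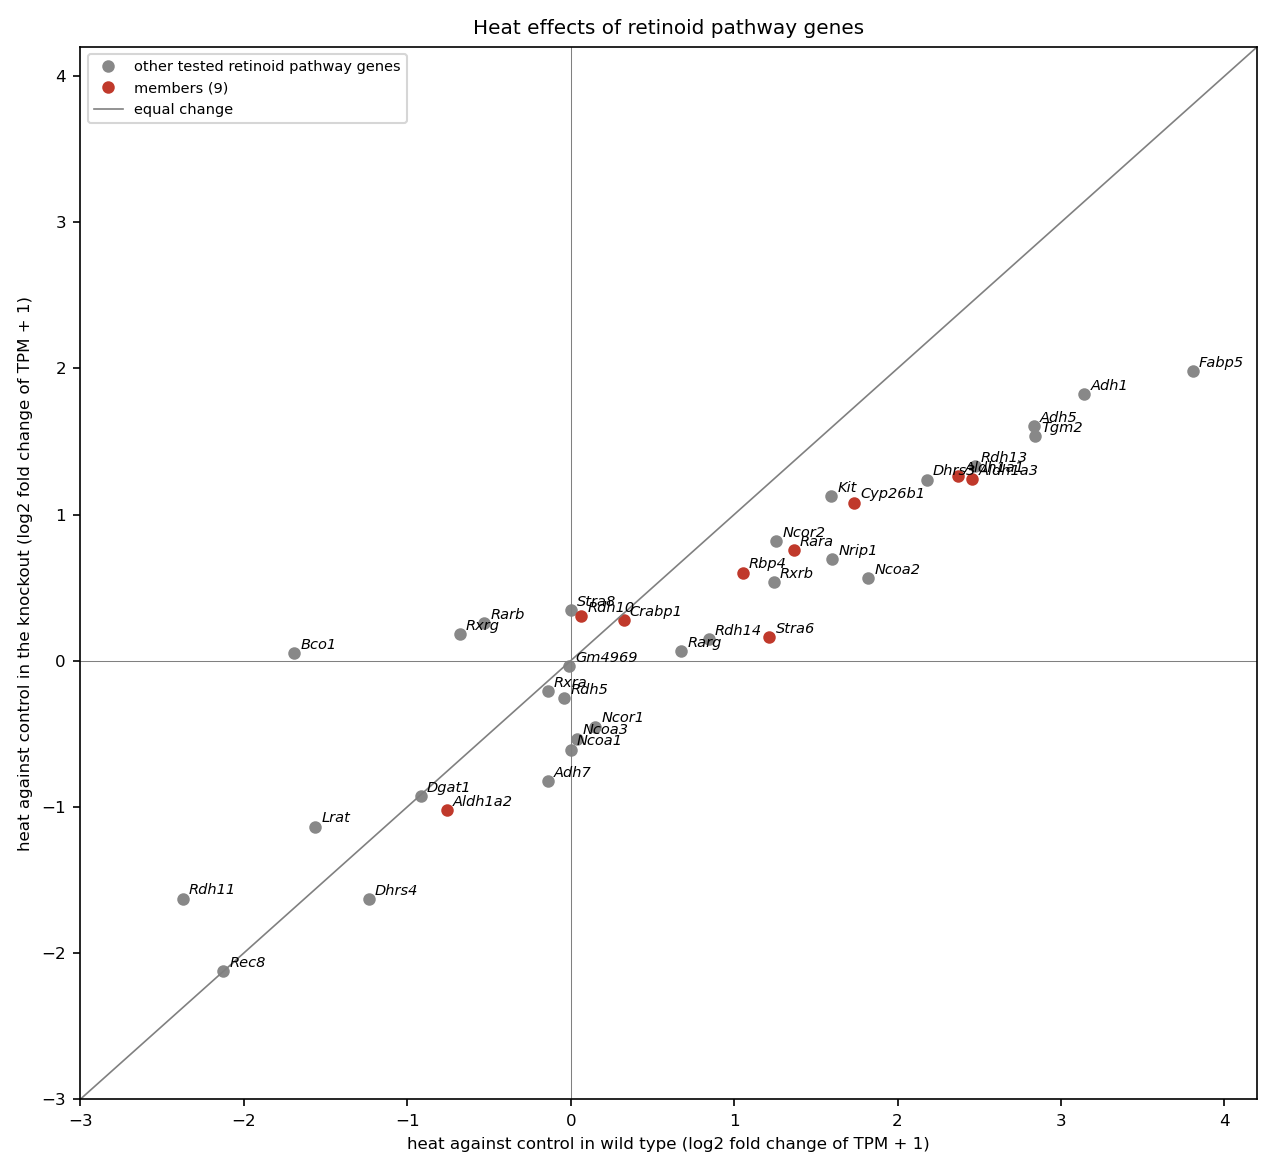
Log2 fold change of TPM + 1 after heat in wild type (x axis) and in the knockout (y axis) for the 9 members (red) and other tested retinoid pathway genes (grey), with a line of equal change. The comparisons use separate libraries, and Bco1 (-1.69, 0.05) stands furthest above the line.

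Neither of the other Cyp26 genes passed the filter. Cyp26a1, another retinoic acid hydroxylase, was 0.76 to 1.10 TPM in the wild-type control and 0.75 to 0.94 TPM in the knockout control. After heat it was 0.75, 0.39, 0.48 and 0.44 TPM in wild type and 1.86, 1.7, 1.76, 1.72 and 1.64 TPM in the knockout. It was examined after its values were seen. Fitted with no filter, Cyp26a1 changed by -0.29 ± 0.06 in wild type (limma adjusted p = 0.000421) and 0.57 ± 0.06 in the knockout (limma adjusted p = 5.35e-08), a difference of 0.86 ± 0.09 (limma adjusted p = 1.20e-07). Cyp26b1, in contrast, rose in both.

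The counts that follow stand against 47.0% higher and 44.6% lower over all tested genes in wild type, and 41.3% and 41.5% in the knockout. All 5 other receptors were tested, with 2 higher and 2 lower after heat in wild type and 3 and 1 in the knockout. Rxrb, a partner of the retinoic acid receptors, rose by a log2 of 1.24 and 0.54. Rarb fell by a log2 of 0.53 in wild type, from 1.295 to 0.59 TPM (limma adjusted p = 0.000163). In the knockout it rose by 0.26, from 1.28 to 1.74 TPM (limma adjusted p = 0.0303). Heated and control libraries of Rarb overlapped in both genotypes. Rxrg fell by 0.68 in wild type, from 1.35 to 0.47 TPM (limma adjusted p = 9.61e-08). In the knockout Rxrg rose by 0.18, from 1.89 to 2.28 TPM (limma adjusted p = 0.0385), with overlapping groups. Of the 6 receptor coregulators, 3 were higher in each genotype, and Ncor1, Ncoa1 and Ncoa3 were called lower in the knockout only. The difference of the heat effects was called lower for all 6, against 47.6% lower and 33.2% higher over all tested genes. Of 9 tested genes known to respond to retinoic acid, 4 rose and 3 fell in wild type, and 6 rose and 2 fell in the knockout. Stra8, a gene of meiotic entry, was 9.70 ± 1.15 TPM and 9.68 ± 0.764 TPM in wild type without and with heat, and 10.9 ± 1.92 and 13.98 ± 1.18 TPM in the knockout, where it rose by a log2 of 0.34 ± 0.10 (limma adjusted p = 0.00255). Rec8, a meiotic cohesin, fell by a log2 of 2.13 in both genotypes. Tgm2 rose by a log2 of 2.84 in wild type and 1.54 in the knockout, and Dhrs3 by 2.18 and 1.24. Kit, a receptor of differentiating spermatogonia, rose by a log2 of 1.59 and 1.13. Of the 6 listed markers of these cells, which include Kit and Stra8, 3 were called higher and 1 lower in wild type. In the knockout 5 were called higher and 1 lower. Their summed TPM was 667 to 782 in the wild-type control and 665 to 747 in the knockout control. After heat it was 102 to 119 in wild type and 190 to 260 in the knockout. The sum fell although only 1 marker was called lower in each genotype, so it does not give the direction of the others.

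The genes whose levels followed each member most closely were named by Pearson's r of log2(TPM + 1) over the 21 libraries, among 10755 genes. Since groups differ strongly, such values mostly reflect group means, and the libraries share them. Aldh1a1 was nearest to Phyh (r = 0.998), Aldh1a2 to Bin3 (0.995), Aldh1a3 to P2rx4 (0.997) and Cyp26b1 to Gpam (0.991). Ctsl, itself in the Sertoli list, came second for Aldh1a3 (0.996). Rbp4 was nearest to Tex101 (0.979), Stra6 to Naglu (0.977) and Rara to Cdc42bpb (0.988). The members with small changes had looser neighbours, Ppp2r5a for Rdh10 (0.885) and Top1mt for Crabp1 (0.781). Over the 21 deviations from group means, Phyh stayed among the 3 nearest for Aldh1a1 (0.875), P2rx4 for Aldh1a3 (0.867), Lamc3 for Cyp26b1 (0.857) and Cdc42bpb for Rara (0.91).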

How the data were processed

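Gene expression was measured by stranded mRNA sequencing of 21 whole testes. The values are TPM deposited by the authors, 1 table with a column per library. STAR and mm10 are named per the submitters' processing notes; the quantifier and annotation are not stated in the sources used here. TPM keeps no depth, so read numbers and counting error are unknown, and precision was judged from replicates. Values were transformed to log2(TPM + 1), which understates the change of low genes. Genes that averaged 1 TPM or more entered 1 limma 3.58.1 model of group means over all libraries (R 4.3.3, empirical Bayes with trend). Benjamini-Hochberg adjustment ran over all 18977 genes, with a threshold of 0.05. The model was tried on simulated data for the comparison of the genotypes without heat only, so that trial does not cover the heat comparisons. Errors are moderated SE for log2 values and SD for TPM. Fold values are ratios of mean TPM. The Aldh1a2 share was tested by exact permutation (SciPy 1.17.1). The members, marker lists and pathway lists were chosen with earlier results of these data known. The text names the members, tested genes of the pathway lists, list markers, and the 3 genes nearest each member; Cyp26a1 was added after its values were seen. The result of 1 listed pathway gene is not reported here. Alternatives were another pseudocount, other filters, other scalings, a replicate block and leaving out each library; leaving out wild-type heat replicate 3 and knockout control replicate 6 together was added after seeing the data. The main model did not take the replicate numbers as pairs. The correlation of deviations over 28 same-numbered pairs had a median of -0.0003 (-0.23 to 0.31), with 4 pairs over 0.1. Whether same-numbered libraries were handled together was not tested.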

Additional observations from a re-analysis of the deposited data

Results flagged for a closer look

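Of 40 groups of libraries examined for a value far from the rest, 2 held one, where chance flags about 5% of groups. Cyp26b1 in wild-type heat replicate 1 was 54.82 TPM, and the next library was 41.24 TPM. The Aldh1a2 share in wild-type heat replicate 4 was 4.80%, and the next was 3.88%.

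The heat effect differed between the genotypes (knockout minus wild type, log2 scale, limma) by -1.11 for Aldh1a1, -0.27 for Aldh1a2, -1.22 for Aldh1a3, 0.24 for Rdh10, -0.45 for Rbp4, -1.05 for Stra6 (-1.055), -0.65 for Cyp26b1 and -0.61 for Rara. The median difference over all tested genes was -0.23, and that of 14 Sertoli markers was -1.21. Their part in the members' differences was not tested.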

How the results depend on the processing

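Over 45 gene results and 28 settings, 1213 of 1255 values kept their direction and their side of the threshold, 16 lost the call, 7 gained it and 19 changed sign. These counts include fits that left out a library outside the groups compared. Such a fit cannot move the estimate itself, so the counts overstate how far the results were tried. Median-of-ratios scaling moved the all-gene median by -0.20 with heat in wild type, by 0.11 for the genotypes after heat and by 0.13 for the difference of heat effects. The values that changed sign were small. Rdh10 with heat in wild type was -0.14 with median-of-ratios scaling and -0.043 with quantile normalization. For the genotypes without heat, Rdh10 was -0.014 and -0.059 with these, and -0.018 to 0.031 with 1 library left out, where Aldh1a2 was -0.011 to 0.0087 and Stra6 -0.091 to 0.0069. The Crabp1 difference of heat effects was 0.083 and 0.021 with these scalings and -0.13 to 0.026 with 1 library left out. The number of members called without heat was 3 with a pseudocount of 0.1, 2 with a filter at 5 TPM, and 1 to 3 with 1 library left out. With the replicate block, the Aldh1a2 share differed by -23.1, -17.2, -4.95 and 1.31 points (exact permutation, adjusted p = 0.125 for each), so all 4 calls were lost. That is the smallest adjusted p these numbers of pairs allow, so the block could not have kept the calls. It changed no call of a single member in the limma fit. Over 28 same-numbered pairs, the correlation of deviations was -0.23 to 0.31, with a median of -0.0003 and 4 pairs over 0.1. These values cannot exclude that same-numbered libraries were handled together. What depth limits cannot be stated, since TPM holds no counts.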
